A study of Homo sapiens with 9 samples.

Results

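Melanoma cells can be placed along a line that runs from a melanocytic state, with the pigment programme on, to an undifferentiated state, with mesenchymal, growth factor and AP-1 genes on. The genes described here are 53 markers of that line, chosen by name: 33 of the melanocytic end, 18 of the undifferentiated end and 2, CCND1 and CITED1, that were assigned to neither. Of the 53, 33 had a row with 1 gene symbol among the 14812 genes of the arrays (22 melanocytic, 10 undifferentiated and CCND1). The other 20 were not analysed here: DCT, SLC45A2, TRPM1, RAB27A, CAPN3, SLC24A5, RAB38, MYO5A, TFAP2A, ST3GAL6 and TNFRSF14 of the melanocytic end, WNT5A, TGFBI, SERPINE2, INHBA, NT5E, PDGFRB, PLAUR and CDH2 of the undifferentiated end, and CITED1.

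Whole-transcript microarrays were made of WM266-4, an established human line from a melanoma metastasis, here carrying GFP. Lipofection delivered either the mimic of miR-199a-3p, at a dose of 0.5 nM in 3 cultures and of 0.25 nM in 3 others, or 0.5 nM of a control microRNA in 3 cultures, and RNA was taken 48 h later. All groups thus share 1 line, the GFP and the lipofection, and no control was given at 0.25 nM. The labels call the arrays of a group biological triplicates, without saying whether same-numbered cultures were made together.

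A mimic is a short double-stranded RNA that loads the mature microRNA into Argonaute, which then pairs through its seed (bases 2 to 8) with target transcripts and lowers them. The mature sequence is shown because it is the agent in both treated groups; capitals mark the seed, and letters are those of RefSeq on GRCh38.p14, where MIR199A2 encodes it at chr1:172144554-172144575 on the minus strand.
hsa-miR-199a-3p: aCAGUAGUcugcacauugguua

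In the melanocytic state MITF, a basic helix-loop-helix transcription factor, works with SOX10 and PAX3 to drive the genes of melanin synthesis and of the melanosome, the organelle that stores the pigment. In the undifferentiated state MITF and SOX10 are low, and SOX9, AP-1 factors of the JUN and FOS families, receptor tyrosine kinases such as EGFR, and matrix genes are high. An intermediate neural crest-like state is marked by the nerve growth factor receptor NGFR with SOX10 still present.

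Values are log2 RMA intensities with arrays shifted to 1 median, so a difference of 1 is a doubling. The values carry a limit that bears on each change and p-value below: as deposited, exactly equal values stood on all 3 arrays of a group in 42.0% to 48.6% of rows, and among the 33 genes in 9 to 11 per group (7 of them at 0.25 nM with no value left out), while values never coincided across groups in any row. The spread within a group is therefore not the spread between treatments. Whether the groups were processed apart is not given in the labels, and an offset between groups from processing and an effect of the mimic cannot be told apart in any change against control. Results are therefore given at 2 levels. The array-level test is limma over 9 arrays, whose error is that spread within groups. The group-level test is limma on the 3 group means, control against both doses, with each group as 1 unit. Its error for a gene is mostly borrowed from other genes at comparable intensity. The gene's own difference between the doses adds little to it. A single dose against control, and the doses against each other, were tested at the array level only. In 0.25 nM replicate 3, where values seem to have lost a digit, those under 10 digits were left out. Whether each of them had lost a digit was not tested. This affects 6 of the 33 genes (IRF4, MLANA, CDK2, LOXL2, TPBG and S100A2), so that n = 2 there.

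The control cells carried most of the measured melanocytic genes well above background and a part of the undifferentiated ones. Background was described by 85 hair keratin-associated genes, structural proteins of the hair shaft, whose control means had a 95th percentile of 6.71; 42.6% of all genes lay above it. Of the melanocytic genes 19 of 22 (86.4%) did, and of the undifferentiated genes 6 of 10 (60.0%). Probe sets differ in how they respond, so an order of genes by intensity is not an order by amount of transcript, and a level below 6.71 does not show that a gene is silent.

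Among the regulators, MITF stood at 9.95 on each control array, SOX10 at 9.51 on each, IRF4, a factor of pigment gene control, at 9.10, 9.10 and 9.29, PAX3 at 7.89, 7.93 and 7.93, and LEF1, a nuclear partner of beta-catenin, at 7.74, 7.54 and 7.61. All 5 lay above the hair keratin level. Among the pigment genes the control mean was 12.74 for TYR (tyrosinase, the first enzyme of melanin synthesis), 12.39 for GPNMB, a melanosomal glycoprotein, 12.19 for PMEL, which forms the melanosome's fibrils, 10.46 for TYRP1, a tyrosinase-related enzyme, 9.11 for GPR143, a melanosomal receptor, and 8.15 for MLANA, a melanosomal membrane protein. OCA2, a melanosomal ion channel protein, at 4.43, was the only pigment gene below the hair keratin level. S100B, a calcium-binding marker of the neural crest lineage, had a control mean of 11.92 and EDNRB, the endothelin receptor of melanoblasts, 11.50. KIT, the stem cell factor receptor of melanocytes, at 4.49, and PLXNC1, a semaphorin receptor, at 5.62, lay below it.

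**Figure D1:**
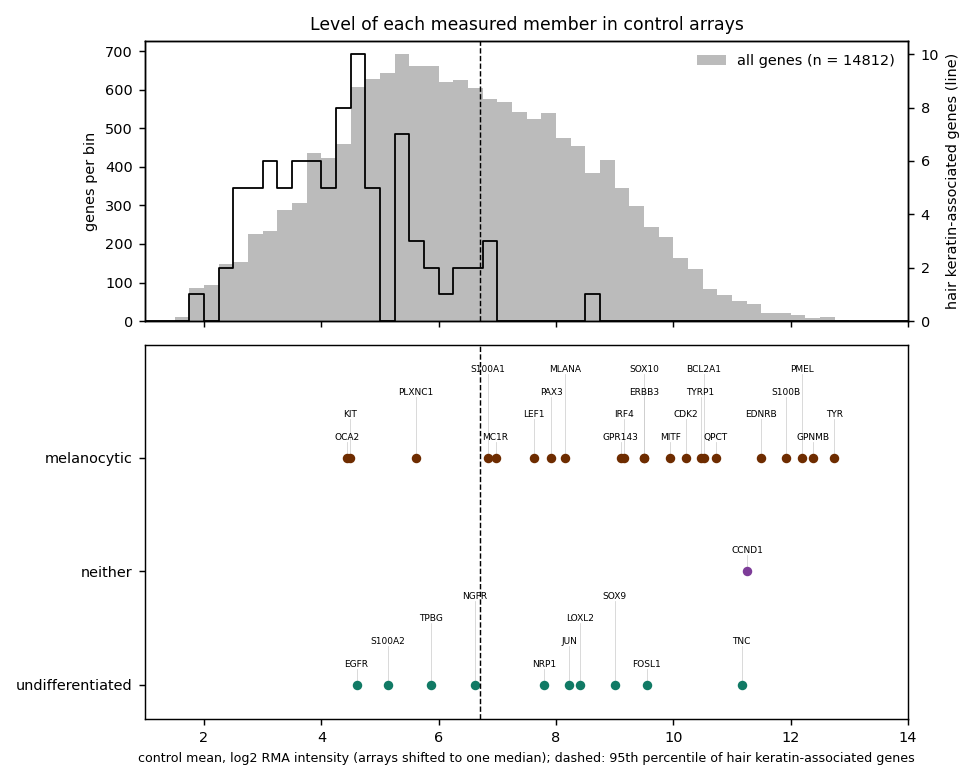
Control mean of each measured gene (dots, lower panel) on the log2 intensity scale, above it the distribution of all 14812 genes (grey bars) and of 85 hair keratin-associated genes (black line). Of the 22 melanocytic genes 19 lie right of the dashed line at 6.71, and of the 10 undifferentiated genes 6 do.

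At the undifferentiated end, the genes above the hair keratin level were the matrix protein TNC (control mean 11.17), the AP-1 factor FOSL1 (9.54), the transcription factor SOX9 (9.01, 8.97 and 9.01 on the control arrays), the matrix cross-linking enzyme LOXL2 (8.42), the AP-1 factor JUN (8.23) and the semaphorin and VEGF co-receptor NRP1 (7.80). The receptors EGFR (4.60) and NGFR (6.61), the surface glycoprotein TPBG (5.87) and the calcium-binding protein S100A2 (5.14) lay below it, NGFR just under the line. By these markers the line had the melanocytic programme on, with some AP-1 and matrix genes detected beside it. CCND1, cyclin D1 of the cell cycle and assigned to neither end, stood at 11.26.

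Related genes outside the 53 were read in the same way: in control cells, of 16 measured further melanocytic genes 14 lay above the hair keratin level, and of 21 measured further undifferentiated genes 10. Of markers of other cell types, 0 of 7 keratinocyte, 0 of 3 fibroblast, 1 of 3 leukocyte and 1 of 3 endothelial markers lay above that level.

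The promoters of some pigment genes hold a known MITF motif. MITF binds the M-box, a form of the E-box, searched here as TCATGTG on both strands (CACATGA on the other) in windows from 250 bases before to 50 after a RefSeq gene start. Of the 33 genes, 22 had such a window. The motif was found in 5 of 17 melanocytic genes (29.4%) and in 0 of 5 undifferentiated genes, against 3.59% of all 27305 genes with a window (2.92% of 35116 windows, since genes with several starts have several). A match is a description of the letters and not of binding. These stretches hold the matches of the 5 genes, in GRCh38.p14, written 5′ to 3′ on the gene's strand with the motif in capitals; they lie at chr11:89177745-89177801 (plus strand) for TYR, chr9:12693215-12693271 (plus) for TYRP1, chr7:23246627-23246744 (plus) for GPNMB, chrX:9765849-9765933 (minus) for GPR143 and chr15:79971197-79971247 (minus) for BCL2A1, a survival gene of the BCL2 family, all before the gene start.
TYR: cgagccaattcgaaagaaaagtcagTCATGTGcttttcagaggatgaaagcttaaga
TYRP1: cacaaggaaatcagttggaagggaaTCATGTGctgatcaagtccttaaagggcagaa
GPNMB: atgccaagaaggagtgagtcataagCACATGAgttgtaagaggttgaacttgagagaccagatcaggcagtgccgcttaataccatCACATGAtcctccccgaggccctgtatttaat
GPR143: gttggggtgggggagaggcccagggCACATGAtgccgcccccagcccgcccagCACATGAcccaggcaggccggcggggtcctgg
BCL2A1: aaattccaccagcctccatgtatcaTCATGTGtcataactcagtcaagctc

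The motif starts 105 bases before the gene start in TYR, 145 in TYRP1, 123 and 62 in GPNMB, 61 and 33 in GPR143 and 26 in BCL2A1. The AP-1 site TGAGTCA, which reads TGACTCA on the opposite strand and is bound by JUN and FOS family dimers, was found in 2 of 5 undifferentiated genes, EGFR and S100A2, in 1 of 17 melanocytic genes, GPNMB, and in 6.05% of all genes with a window (4.95% of windows). In GPNMB it lies 134 bases before the start. The match in S100A2 starts 52 bases before its start, in the stretch chr1:153565865-153565921 on the minus strand, shown as the site of the AP-1 factors that are followed below.
S100A2: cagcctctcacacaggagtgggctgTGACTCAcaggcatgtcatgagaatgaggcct

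Whether the mimic moved the cells along the line could not be settled from these values. The differences between the ends were small at both doses. The spread between arrays of a group, given with them below, is not the spread between treatments. The median change of the melanocytic genes was -0.00135 at 0.5 nM and -0.10 at 0.25 nM, and that of the undifferentiated genes -0.037 and -0.12, beside 0.011 and -0.020 over all genes. The sign of these medians follows the scaling: without the array shift they were 0.087 and 0.055 for the melanocytic and 0.052 and 0.039 for the undifferentiated genes. The difference between the ends was 0.035 at 0.5 nM and 0.014 at 0.25 nM, and 0.035 and 0.015 without the shift. These nearly coincide by construction, because the shift takes the same amount from every gene of an array. The difference was 0.071 and 0.066 with quantile normalization, and 0.012 and 0.084 over genes at or above the median level. No test was made of it, since the genes were chosen as a set.

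The same difference was taken on each array. The melanocytic median minus the undifferentiated median was 0.19, 0.017 and 0.0089 on replicates 1, 2 and 3 at 0.5 nM, and 0.099, -0.0056 and -0.055 at 0.25 nM. Control arrays stood at 0, 0 and -0.0063. Replicate 3 at 0.25 nM, with values left out, was taken over 19 melanocytic and 7 undifferentiated genes, and every other array over 22 and 10. Replicate 1 was the highest array at each dose; all arrays at 0.5 nM lay above the control arrays, and those at 0.25 nM lay on both sides of them. The mean ± SD was 0.073 ± 0.10 at 0.5 nM and 0.013 ± 0.078 at 0.25 nM (n = 3 each), so at both doses the SD exceeded the mean. Over the 19 melanocytic and 6 undifferentiated genes above the hair keratin level the order of the doses was the other way round: -0.028 ± 0.12 at 0.5 nM and 0.057 ± 0.071 at 0.25 nM (n = 3 each), beside a control SD of 0.071. Of these genes, replicate 3 at 0.25 nM held values for 16 and 5. The control values are near 0 by construction, because changes are taken from the control mean and many control values are tied.

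**Figure D2:**
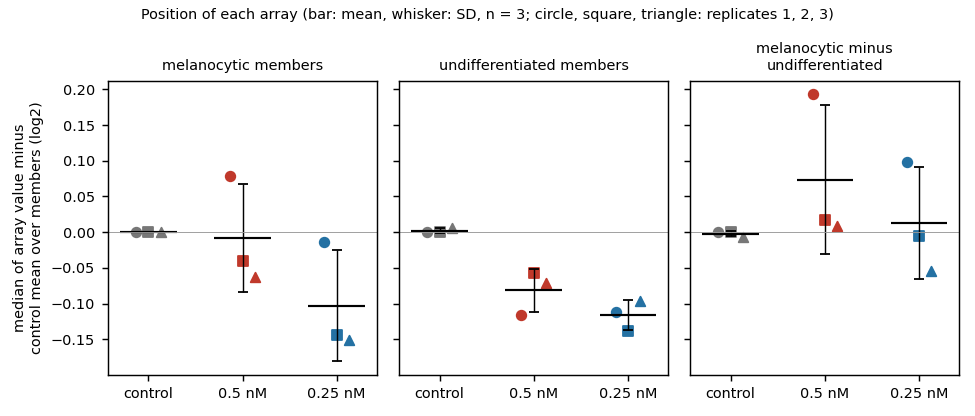
Median over melanocytic genes, over undifferentiated genes, and their difference, for each array, as log2 value minus control mean; bars are means and whiskers SD of 3 arrays. In the right panel the treated arrays lie between -0.055 and 0.19, on both sides of the control arrays. Replicate 3 at 0.25 nM is taken over 19 melanocytic and 7 undifferentiated genes, and every other array over 22 and 10.

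With each group as 1 unit, 0 of the 33 genes passed in the limma test of the doses together, where 18 of all 14812 genes did (0.122%). At an unadjusted p under 0.05, 2 of the 33 passed, JUN and ERBB3, or 6.06% beside 6.51% of all genes. This test is coarse: the half-width of its unadjusted 95% interval was 0.23 to 0.42 for the 26 genes above the hair keratin level. For the 7 genes below that level it was 0.44 to 0.66. Changes smaller than these could not be told from 0. To pass after adjustment a change had to be larger still: JUN (-0.62) and ERBB3 (-0.38) exceeded their half-widths and did not pass. By the array-level test 16 of 33 passed at 0.5 nM (48.5%, 5 higher and 11 lower), beside 63.0% of all genes (33.2% higher and 29.8% lower). At 0.25 nM 20 passed (60.6%, 6 higher and 14 lower), beside 64.1% of all genes (30.3% higher and 33.9% lower). The treated arrays did not overlap the control arrays for 20 of 33 genes at each dose (60.6%), beside 73.9% of all genes at 0.5 nM and 74.3% at 0.25 nM. Between the doses, which hold the same mimic, 19 of 33 passed (57.6%), beside 62.2% of all genes. Of the melanocytic genes 11 of 22 passed at 0.5 nM and 14 at 0.25 nM, and of the undifferentiated genes 5 and 6 of 10, so that against control neither end exceeded the rate over all genes. Between the doses 15 of 22 melanocytic genes passed (68.2%) and 4 of 10 undifferentiated genes.

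**Figure D3:**
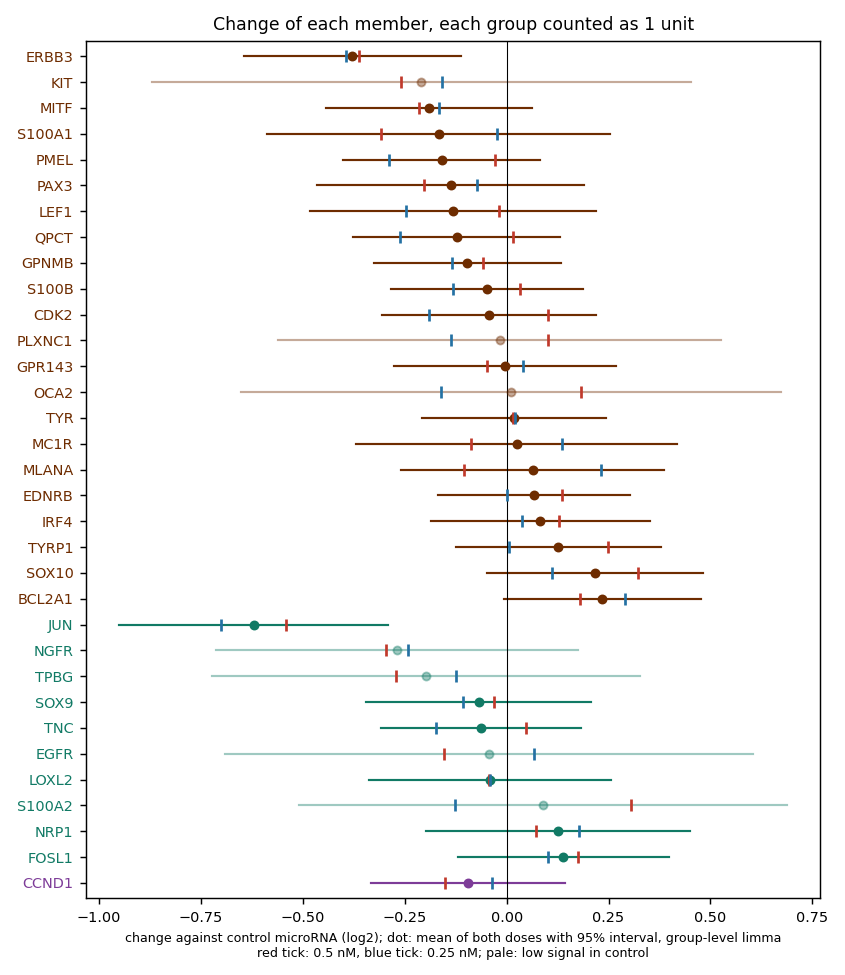
Change of each gene against control on the log2 scale: dots are the mean of both doses with the 95% interval of the group-level limma test, red ticks 0.5 nM and blue ticks 0.25 nM; pale genes lie below the hair keratin level. The interval leaves out 0 for JUN and ERBB3 alone, and neither passed after adjustment.

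The regulators of the melanocytic end lay on both sides of control, and none passed the group-level test. MITF read 9.95 on all control arrays, 9.74, 9.73 and 9.73 at 0.5 nM, and 9.79, 9.78 and 9.78 at 0.25 nM. As deposited, each group held 1 value of MITF on all 3 arrays, so its differences within a group come from the array shift alone. Both treated groups lay below control with no overlap, by 0.22 and 0.17, and the mean of the doses was -0.19 (95% interval -0.44 to 0.063; limma group-level adjusted p = 0.892). Without the array shift MITF lay at -0.13 and -0.01.

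SOX10 read 9.51 on all control arrays, 9.83, 9.80 and 9.86 at 0.5 nM, and 9.64, 9.62 and 9.59 at 0.25 nM. It lay above control on every treated array, at 0.32 and 0.11, with a mean of 0.22 (95% interval -0.047 to 0.48; limma group-level adjusted p = 0.864). Both genes passed the array-level test at each dose, as lower and as higher. PAX3 lay at -0.20 and -0.07, with the sign turning at 0.25 nM without the shift, IRF4 at 0.13 and 0.04, and LEF1 at -0.02 and -0.25. At 0.25 nM LEF1 lay lower in all 3 same-numbered pairs; it did not pass the array-level test (limma adjusted p = 0.238) and passed with replicate blocks (limma adjusted p = 0.0367).

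The pigment genes stayed within 0.29 of control at both doses, and their signs were mixed. TYR read 12.80, 12.70 and 12.73 in control, 12.86, 12.74 and 12.68 at 0.5 nM, and 12.77, 12.75 and 12.77 at 0.25 nM, so that the 3 groups overlapped. Its mean change was 0.018 (95% interval -0.21 to 0.24; limma group-level adjusted p = 0.994). It passed the array-level test as higher only under other scalings: at 0.25 nM without the shift (0.18; limma adjusted p = 0.0103) and at both doses with quantile normalization (0.12 each; limma adjusted p = 0.0400 and 0.0387). PMEL read 12.22, 12.18 and 12.18 in control, 12.31, 12.06 and 12.13 at 0.5 nM and 12.10, 11.82 and 11.79 at 0.25 nM. Its 0.5 nM arrays spanned control and its 0.25 nM arrays lay below it, by 0.29 on average (limma array-level adjusted p = 0.0298). That call was lost without the shift (-0.13; limma adjusted p = 0.244) and when any control array or 0.25 nM replicate 2 or 3 was left out (limma adjusted p from 0.0645 to 0.108). It was kept with replicate blocks (limma adjusted p = 0.00864) and without 0.25 nM replicate 1 (limma adjusted p = 0.00348).

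MLANA read 8.15 on all control arrays, 8.05, 8.04 and 8.04 at 0.5 nM, and 8.35 and 8.40 at 0.25 nM (n = 2). It was thus just below control at the higher dose and above it at the lower one, and its call at 0.5 nM was lost without the shift (-0.02; limma adjusted p = 0.415). TYRP1 lay at 0.25 and 0.01, GPR143 at -0.05 and 0.04, GPNMB at -0.06 and -0.14, and OCA2, of low signal, at 0.18 and -0.16. Of the 7 pigment genes 3 passed the array-level test at 0.5 nM (1 higher and 2 lower) and 3 at 0.25 nM (1 higher and 2 lower), and none the group-level test. The array-level share was 42.9% at each dose, beside 63.0% and 64.1% of all genes. The signs of PMEL and GPR143 at 0.5 nM and of GPNMB at both doses turned under another scaling.

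Of the 5 genes with an M-box in the stretches above, GPR143 at 0.5 nM and GPNMB at both doses changed direction with the scaling. TYR, TYRP1 and BCL2A1 lay above control at both doses under each scaling. With the shift, at 0.5 nM they stood at 0.25 (TYRP1), 0.18 (BCL2A1), 0.02 (TYR), -0.05 (GPR143) and -0.06 (GPNMB), and at 0.25 nM at 0.01, 0.29, 0.02, 0.04 and -0.14 in the same order. Without the shift all 5 lay above control, at 0.34, 0.27, 0.10, 0.04 and 0.03 at 0.5 nM and at 0.16, 0.45, 0.18, 0.20 and 0.02 at 0.25 nM, and with quantile normalization all 5 did at 0.25 nM. MITF lay below control under each scaling.

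Among melanocytic receptors, ERBB3, the neuregulin receptor of the melanocyte lineage, showed the largest difference of the melanocytic end. It read 9.51 on all control arrays, 9.15, 9.15 and 9.13 at 0.5 nM, and 9.12, 9.11 and 9.11 at 0.25 nM. All treated arrays lay below control, by 0.36 and 0.39, or 0.778 and 0.761 of the control level. The mean change was -0.38 (95% interval -0.65 to -0.11; limma group-level unadjusted p = 0.00675, adjusted p = 0.459), and its rank by p was 218 of 14812 genes. Its sign was the same without the shift (-0.27 and -0.24) and with quantile normalization (-0.35 and -0.38). EDNRB lay at 0.14 at 0.5 nM and level with control at 0.25 nM, MC1R, the melanocortin receptor, at -0.09 and 0.14, KIT at -0.26 and -0.16 and PLXNC1 at 0.10 and -0.14, the last 2 of low signal.

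BCL2A1 read 10.34, 10.63 and 10.58 in control, 10.56, 10.79 and 10.73 at 0.5 nM, and 10.67, 10.87 and 10.87 at 0.25 nM. The 0.5 nM arrays overlapped control and the 0.25 nM arrays did not, and within each replicate number both treated arrays were higher than control. The change was 0.18 and 0.29, with a mean of 0.23 (95% interval -0.0075 to 0.48; limma group-level unadjusted p = 0.0571, adjusted p = 0.798). At 0.5 nM it did not pass the array-level test (limma adjusted p = 0.159) but passed once same-numbered arrays were treated as blocks (limma adjusted p = 0.000669). At 0.25 nM it passed without the blocks (limma adjusted p = 0.0370) and with them (limma adjusted p = 0.000101). The call without the blocks was lost when control replicate 1 or 3, 0.5 nM replicate 3, or 0.25 nM replicate 2 or 3 was left out (limma adjusted p from 0.0545 to 0.107).

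Of the remaining melanocytic genes, S100A1, a calcium-binding protein, read 6.84 on all control arrays, 6.54, 6.53 and 6.53 at 0.5 nM and 6.81, 6.83 and 6.83 at 0.25 nM. It stood 0.31 below control at 0.5 nM and 0.024 below at 0.25 nM, where the array-level call (limma adjusted p = 0.0410) was lost with the block (limma adjusted p = 0.0694) and on leaving out any control array, 0.5 nM replicate 2 or 0.25 nM replicate 3 (limma adjusted p from 0.0628 to 0.465), and the sign turned without the shift (0.13). CDK2, a cell cycle kinase under MITF control in melanoma, lay at 0.10 and -0.19, S100B at 0.03 and -0.13 and QPCT, a glutaminyl cyclase, at 0.02 and -0.26.

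**Figure D4:**
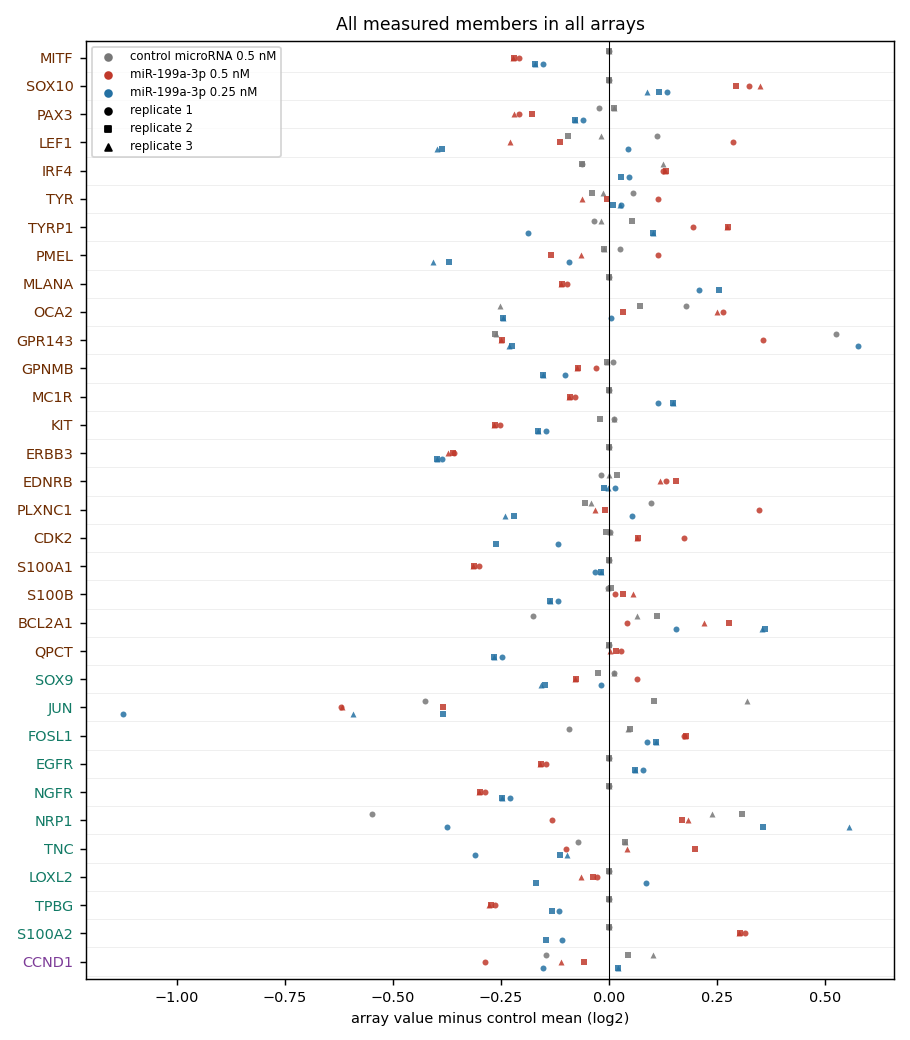
Each array's value minus the control mean (log2) for all 33 genes: grey, control; red, 0.5 nM; blue, 0.25 nM; circles, squares and triangles are replicates 1, 2 and 3. ERBB3, JUN, MITF, PAX3, GPNMB, KIT, S100A1, NGFR and TPBG lie left of the control mean on every treated array with a value. SOX10, IRF4, BCL2A1 and FOSL1 lie right of it on each, so genes of both ends lie on both sides.

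At the undifferentiated end JUN, the AP-1 factor, showed the largest difference of the 33 genes. It read 7.80, 8.33 and 8.55 in control, 7.61, 7.84 and 7.61 at 0.5 nM, and 7.10, 7.84 and 7.63 at 0.25 nM. The groups overlapped, because control replicate 1 was low, but each treated array lay below the control array of its own number. The change was -0.54 and -0.70, or 0.687 and 0.616 of the control level. The mean change was -0.62 (95% interval -0.95 to -0.29; limma group-level unadjusted p = 0.000538, adjusted p = 0.163), and its rank by p was 49 of 14812 genes.

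The call for JUN turned on single arrays. JUN passed the group-level test when control replicate 1 was left out (limma adjusted p = 0.0106) and when 0.5 nM replicate 2 was left out (limma adjusted p = 0.0473); over all settings of that test its adjusted p ran from 0.0106 to 0.840 while its change stayed between -0.83 and -0.46. By the array-level test it did not pass at 0.5 nM (limma adjusted p = 0.0915) and passed at 0.25 nM (limma adjusted p = 0.0384), and with the replicate number as a block it passed at both (limma adjusted p = 0.0291 and 0.0117). The call at 0.25 nM was lost without the array shift (limma adjusted p = 0.104) and when any 1 of 7 arrays was left out, all but control replicate 1 and 0.25 nM replicate 2 (limma adjusted p from 0.0530 to 0.116).

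FOSL1, the other AP-1 factor, lay on the opposite side. It read 9.45, 9.59 and 9.59 in control, 9.72 on each array at 0.5 nM, and 9.63, 9.65 and 9.65 at 0.25 nM. Every treated array lay above control, by 0.18 and 0.10 on average (limma group-level adjusted p = 0.958). It passed the array-level test at both doses (limma adjusted p = 0.00367 and 0.0384), and the call at 0.25 nM was lost when any treated array was left out (limma adjusted p from 0.0574 to 0.0925). SOX9 read 9.01, 8.97 and 9.01 in control, 9.06, 8.92 and 8.92 at 0.5 nM and 8.98, 8.85 and 8.84 at 0.25 nM, and its groups overlapped. Its changes of -0.03 and -0.11 turned sign without the shift, and at 0.25 nM it passed as lower with the block (limma adjusted p = 0.0294) and without 0.25 nM replicate 1 (limma adjusted p = 0.0273).

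Among receptors, NRP1 read 7.26, 8.11 and 8.04 in control, 7.67, 7.97 and 7.98 at 0.5 nM and 7.43, 8.16 and 8.36 at 0.25 nM. The groups overlapped widely (limma group-level adjusted p = 0.968), and replicate 1 was the lowest array of each group. Its changes of 0.07 and 0.18 turned to -0.20 and -0.09 without control replicate 1. NGFR read 6.61 on all control arrays, 6.32, 6.31 and 6.31 at 0.5 nM and 6.38, 6.36 and 6.36 at 0.25 nM. It lay below control by 0.30 and 0.24, near the hair keratin level (limma group-level adjusted p = 0.938). EGFR, of low signal, read 4.60 on all control arrays, 4.45, 4.44 and 4.44 at 0.5 nM and 4.68, 4.66 and 4.66 at 0.25 nM, below control at the higher dose and above it at the lower. NGFR and EGFR also each held 1 deposited value per group, so their differences within groups come from the array shift alone.

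Of the matrix genes, TNC read 11.09, 11.20 and 11.20 in control, 11.07, 11.36 and 11.21 at 0.5 nM and 10.86, 11.05 and 11.07 at 0.25 nM. It spanned control at 0.5 nM and lay below it at 0.25 nM (limma group-level adjusted p = 0.980). With the block it passed at 0.25 nM, by -0.17 (limma adjusted p = 0.124 without and 0.0183 with it). LOXL2 lay at -0.04 at both doses, TPBG at -0.27 and -0.12 and S100A2, with the AP-1 site shown above, at 0.31 and -0.13, the last 2 of low signal. CCND1 lay at -0.15 and -0.04 and passed at 0.5 nM with the block only (limma adjusted p = 0.177 without and 0.00302 with it).

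Within groups, replicate 1 stood apart from replicates 2 and 3 for several of these genes. GPR143 was higher in replicate 1 than in the mean of replicates 2 and 3 by 0.79 in control, 0.60 at 0.5 nM and 0.80 at 0.25 nM. LEF1 was higher by 0.17, 0.46 and 0.44. NRP1 was lower, with differences of -0.82, -0.31 and -0.83, as was JUN, at -0.64, -0.12 and -0.64. For GPR143 and NRP1 these differences within groups exceeded every change against control. The part of the replicate in the results was not tested beyond the block and the arrays left out.

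**Figure D5:**
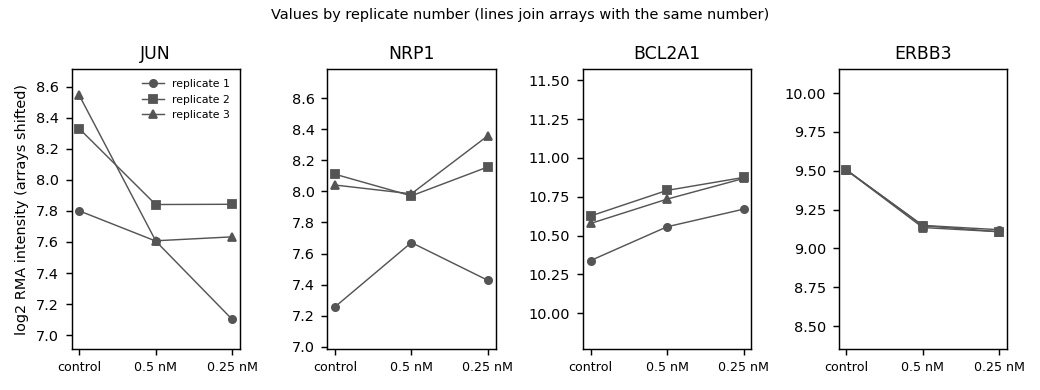
Log2 intensities of JUN, NRP1, BCL2A1 and ERBB3 by group, with lines joining arrays of the same replicate number; each panel spans 1.8 units. JUN lies lower and BCL2A1 higher in both treated groups along each line, NRP1 is lowest in replicate 1 of each group, and the 3 lines of ERBB3 nearly coincide.

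By sign alone, 7 of the 33 genes lay above control at both doses, 14 below it and 12 on opposite sides, beside 33.2%, 34.6% and 32.2% of all genes; the doses share their control arrays. Among melanocytic genes both doses were above control for 5 and below it for 8, and among undifferentiated genes for 2 and 5. The sign of a change turned under another scaling for 7 of the 33 genes at 0.5 nM, all within 0.09 of control, and for 11 at 0.25 nM, all within 0.14.

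Of 16 further melanocytic genes 0 passed the group-level limma test (2 at an unadjusted p under 0.05), and by the array-level test 2 were higher and 7 lower at 0.5 nM and 4 higher and 4 lower at 0.25 nM, with median changes of -0.08 and -0.02; the shares passing were 56.2% at 0.5 nM and 8 of 16 at 0.25 nM, beside 63.0% and 64.1% of all genes. Of 21 further undifferentiated genes 0 passed the group-level limma test (2 at an unadjusted p under 0.05), and by the array-level test 6 were higher and 6 lower at 0.5 nM and 8 higher and 5 lower at 0.25 nM, with median changes of -0.02 and 0.01; the shares passing were 57.1% and 61.9%. At an unadjusted p under 0.05 the group-level shares were 12.5% and 9.52% for these lists, beside 6.51% of all genes.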

How the data were processed

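The deposited table holds log2 intensities of 44629 rows and 9 arrays; oligo, affy and RMA are the tools named per the submitters' processing notes, whose versions, like the genome build, were not given in the sources used here. The platform annotation gave 1 symbol to 15835 rows, and the brightest row per gene left 14812 genes. In 0.25 nM replicate 3, where no value has 0 as its first decimal, values under 10 digits were left out (19.1% of genes). Arrays were shifted to the same median over 11977 genes with no missing value, which took 0.09 (0.5 nM) and 0.16 (0.25 nM) from the changes.

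Tests used limma 3.58.1 in R 4.3.3, two-sided, with Benjamini-Hochberg adjustment over all genes at 0.05, and were tested on simulated data. The group-level test used an intensity trend (33.1 prior degrees of freedom). Same-numbered arrays of different groups deviated together (r from 0.14 to 0.59 in 9 pairs, across genes, beside -0.48 to 0.36 in 18 pairs of other numbers, where replicates 2 and 3 were not told apart), so replicate number was also fitted as a block. Background was to be set by olfactory receptor genes, but the annotation names 1, so hair keratin-associated genes took their place after the data were seen. Every array's value is given for MITF, SOX10, SOX9, TYR, PMEL, MLANA, EGFR, NGFR for any gene passing the group-level test and, per state, for the 5 genes above background with the largest mean change over the doses; values of CCND1 and other genes are summaries. Genes and lists were chosen with earlier results of these data known. Within a group precision rests on 3 arrays, or 2 where a value was left out, and between treatments on 1 group each.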

Additional observations from a re-analysis of the deposited data

Results flagged for a closer look

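For 7 of the 33 genes (21.2%) all arrays of one dose lay above control and all arrays of the other below it, beside 16.7% of all genes. The difference of 0.5 nM minus 0.25 nM on the log2 scale was -0.34 for MLANA, -0.22 for MC1R, 0.29 for CDK2, 0.16 for S100B, 0.28 for QPCT, -0.22 for EGFR and 0.43 for S100A2. Each passed the array-level limma test between the doses (adjusted p from 2.36e-07 for QPCT to 0.00270 for CDK2), whose error is the spread within groups and which called 62.2% of all genes. With each group as 1 unit the difference between the doses was not tested, since there is 1 group per dose. EGFR and S100A2 had low signal. For MLANA, CDK2 and S100A2 the 0.25 nM side rests on n = 2. At 0.5 nM QPCT, CDK2 and S100B did not pass the array-level test against control (limma adjusted p = 0.209, 0.0957 and 0.0501). At 0.5 nM MC1R, and at 0.25 nM S100B and S100A2, had the opposite sign without the array shift, so that the mean changes of these 3 genes then had the same sign at both doses.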

How the results depend on the processing

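With same-numbered arrays as replicate block and arrays as units, 20 of the 33 genes passed for both doses against control, beside 9918 of all 14812 genes. The group-level test called 0 to 1 of the 33 over the 9 arrays left out in turn, JUN in 2 of them, and 0 in its other settings. At 0.5 nM the block gave 19 genes in place of 16 (57.6%, beside 65.6% of all genes) and at 0.25 nM 22 in place of 20 (66.7%, beside 67.4%). Leaving out single arrays gave 14 to 19, 15 to 21 and, between the doses, 17 to 21 of the 33 genes. The shares of all genes were then 58.1% to 65.9%, 58.7% to 64.8% and 58.2% to 63.9%. Without replicate 1 of every group, a setting added after the data were seen, 29 passed between the doses (87.9%, beside 70.1% of all genes). Without the array shift the medians were 0.087 and 0.055 (melanocytic, 0.5 and 0.25 nM) and 0.052 and 0.039 (undifferentiated). At 0.25 nM quantile normalization gave -0.012 and -0.078, and genes at or above the median level gave -0.024 for the melanocytic end. Without replicate 1 the undifferentiated medians were -0.085 and -0.14. Over single arrays left out the melanocytic medians ran from -0.053 to 0.038 and from -0.14 to -0.060, the undifferentiated from -0.099 to -0.019 and from -0.14 to -0.087, and the difference of the ends from 0.011 to 0.13 at 0.5 nM and from -0.0056 to 0.035 at 0.25 nM. S100A1 at 0.25 nM turned to 0.13 without the shift and 0.013 with quantile normalization. Without the shift SOX9 turned to 0.058 and 0.049 (0.5 and 0.25 nM) and PMEL at 0.5 nM to 0.060, and to 0.038 with quantile normalization. Without replicate 1 of every group TYR turned to -0.0061 and NRP1 to -0.098 at 0.5 nM. Over single arrays left out TYR ran from -0.033 to 0.054, PMEL from -0.10 to 0.025, TNC from -0.029 to 0.12 and NRP1 from -0.20 to 0.23 at 0.5 nM, and NRP1 from -0.095 to 0.46 at 0.25 nM. The cause of these shifts was not tested. Among values of the named genes under alternatives, 444 kept direction and call, 37 lost a call, 13 gained one and 14 turned sign. The planned olfactory receptor level was not run; by the median of all genes 27 of 33 lay above, in place of 26.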
